A study of Mus musculus with 8 samples.

Results

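A set of 32 genes of cholesterol and fatty acid synthesis and its control, known as targets or parts of the sterol regulatory element-binding protein (SREBP) system, was followed in cultured mouse muscle. They were matched by symbol, a rule that uses none of their values, as 32 of the 35275 genes in the deposited table: 18 enzymes that lead from acetyl-CoA to cholesterol, 9 enzymes that make and modify fatty acids, and 5 genes of SREBP control and sterol transport. They are not every gene of the pathway, and the set was chosen with earlier results of these data known. Primary myogenic progenitor cells (MPCs, the proliferating precursors of muscle fibres) of C57BL6/J mice had been fused in a medium with horse serum into myotubes, the multinucleated fibres of muscle culture. These were given extracellular vesicles (EVs, small membrane particles shed by cells) collected from MPCs, or, as control, EVs prepared from growth medium. Both preparations were made by a polymer-based method. Myotubes were harvested after 12 h or 24 h, which gave 4 groups (control 12 h, MPC EV 12 h, control 24 h and MPC EV 24 h) of 2 libraries each. The labels name no genetic change. Myotubes without EVs were not analysed here, so a higher level with MPC EVs and a lower level with control EVs cannot be told apart. Whether the 2 libraries of a group are from separate cultures or animals is not in the labels, and p-values then reflect no more than the scatter of these libraries, possibly a technical one.

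Cells sense cholesterol in the membrane of the endoplasmic reticulum. When it is scarce, the escort protein SCAP carries SREBPs to the Golgi, where proteases free the part that enters the nucleus and switches on lipid genes. When sterols are plentiful, INSIG proteins hold SCAP back. SREBP-2, from Srebf2, is best known for driving cholesterol synthesis and SREBP-1c, from Srebf1, for driving fatty acid synthesis. The nuclear SREBPs bind a short sterol regulatory element and usually act beside the factors NF-Y, which binds a CCAAT box, and Sp1, which binds a GC box. In muscle, cholesterol and unsaturated fatty acids go into the plasma membrane and the inner membranes of the fibre.

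Promoter sequence was looked up for the members because their joint control is usually read from it. The RefSeq table of mouse promoters (build GRCm38.p6, 250 bases before to 50 after each start) held 25 of the 32 genes. The missing genes were Fdft1, Fdps, Sqle, Scd1, Scd2, Fads1 and Stard4. The motifs were searched on both strands. The CCAAT box was found for 14 of 15 sterol enzymes (all but Acat2), for 3 of 4 control genes (Insig1, Srebf1 and Srebf2) and for 3 of 6 fatty acid genes (Acly, Acss2 and Fasn), while 42.9% of 8455 tested genes with a window had it. The GC box GGGCGG was found for 14 of 15, 4 of 4 and 3 of 6, against 71.7% of tested genes. The core of the sterol regulatory element, TCACNCCAC, was found only for Hmgcs1 among the 25, as TCACCCCAC on the gene's strand 137 bases before the start, and for 1.38% of tested genes. The palindromic E-box TCACGTGA, a second sequence that SREBPs bind, was found for no member and for 2.48% of tested genes. Matches are letters, not binding sites. Shown here are the 250 bases before the start for the 6 genes with a window that were higher with MPC EVs at 12 h (the seventh, Stard4, is one of those not in the table), and for Fasn, the central fatty acid enzyme, which was not called. Each is written 5′ to 3′ on the gene's strand with matches to CCAAT on either strand (ATTGG is its reverse), and to the sterol regulatory element core, in capitals. In Fasn a pair of CCAAT matches on opposite strands overlap. Dhcr7 has 3 annotated starts, and the window shown is the only one of them with a CCAAT box.
Hmgcs1 chr13:119690101-119690350 (+): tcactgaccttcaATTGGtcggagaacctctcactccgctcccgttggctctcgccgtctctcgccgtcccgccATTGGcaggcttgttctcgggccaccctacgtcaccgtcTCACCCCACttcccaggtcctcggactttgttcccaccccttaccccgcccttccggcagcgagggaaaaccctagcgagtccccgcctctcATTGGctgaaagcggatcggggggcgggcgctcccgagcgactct
Cyp51 chr5:4104698-4104947 (-): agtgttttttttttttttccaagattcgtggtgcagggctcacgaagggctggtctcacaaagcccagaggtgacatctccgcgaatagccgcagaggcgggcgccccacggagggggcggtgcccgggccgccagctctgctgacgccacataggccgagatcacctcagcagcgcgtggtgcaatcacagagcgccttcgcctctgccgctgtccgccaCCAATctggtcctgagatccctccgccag
Msmo1 chr8:64733579-64733828 (-): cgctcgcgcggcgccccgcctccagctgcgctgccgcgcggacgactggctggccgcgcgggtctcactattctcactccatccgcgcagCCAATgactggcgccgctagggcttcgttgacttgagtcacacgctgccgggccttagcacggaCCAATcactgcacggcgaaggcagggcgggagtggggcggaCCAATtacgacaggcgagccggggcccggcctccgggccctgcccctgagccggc
Sc5d chr9:42264301-42264550 (-): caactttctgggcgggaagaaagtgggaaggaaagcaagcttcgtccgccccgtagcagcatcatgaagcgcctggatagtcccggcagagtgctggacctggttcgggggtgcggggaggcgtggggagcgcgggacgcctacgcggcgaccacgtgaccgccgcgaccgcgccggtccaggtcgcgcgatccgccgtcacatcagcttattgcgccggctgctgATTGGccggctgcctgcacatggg
Dhcr7 chr7:143829964-143830213 (+): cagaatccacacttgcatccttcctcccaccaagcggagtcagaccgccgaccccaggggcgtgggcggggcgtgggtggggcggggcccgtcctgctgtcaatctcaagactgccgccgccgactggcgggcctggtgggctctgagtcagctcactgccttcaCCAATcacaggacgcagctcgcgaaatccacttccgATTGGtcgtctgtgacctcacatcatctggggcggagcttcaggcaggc
Acss2 chr2:155517793-155518042 (+): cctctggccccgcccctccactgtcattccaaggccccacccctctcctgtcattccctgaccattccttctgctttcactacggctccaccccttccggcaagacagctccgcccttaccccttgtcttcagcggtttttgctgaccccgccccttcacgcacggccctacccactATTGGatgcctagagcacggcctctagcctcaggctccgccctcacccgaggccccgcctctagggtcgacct
Fasn chr11:120824548-120824797 (-): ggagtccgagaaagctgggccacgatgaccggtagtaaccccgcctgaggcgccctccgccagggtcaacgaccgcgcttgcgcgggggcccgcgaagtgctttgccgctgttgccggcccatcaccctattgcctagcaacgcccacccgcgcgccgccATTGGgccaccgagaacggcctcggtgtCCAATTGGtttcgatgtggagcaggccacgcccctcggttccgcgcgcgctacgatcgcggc

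Levels are given as FPKM, the fragments assigned to a gene, scaled to its length and to the library's mapped total, as the authors deposited them. Depth, read from the step between low values, was 16.3 to 20.2 M fragments per library (M for mega). Of the 35275 genes, 10981 had a mean of at least 1 FPKM and were tested, and all 32 members were among them. Differences are of log2(FPKM + 0.5), a scale on which changes of low genes are understated. A gene was called where its p from limma, adjusted by Benjamini-Hochberg over all tested genes, was at most 0.05. All 9 myotube markers were tested and their summed level was 9380 to 15200 FPKM. The 9 adipocyte markers summed to 5.09 to 7.66 FPKM: Pparg (up to 4.91 FPKM) and Cebpa were tested, Cidec and Retn were at 0 in all 8 libraries, and Adipoq and Lep were under 0.1 FPKM. Control 12 h replicate 2 stood apart from its partner, with a correlation of 0.947 across genes against 0.992 to 0.996 in the other groups. Tested genes with under 45% GC had a median of -0.50 (log2) in it relative to replicate 1, and the others a median of 0.14. The 7 members with under 45% GC had a median of -0.20 and the other 25 one of 0.27.

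The members were expressed over a range of levels in these myotubes. The highest mean over the 8 libraries was that of Fdps (148 FPKM), which makes farnesyl diphosphate, the branch point between sterols and prenyl groups. It was followed by the desaturase gene Scd2 (78.1 FPKM), by Hmgcs1 (55.3 FPKM), whose product makes HMG-CoA, by the ATP-citrate lyase gene Acly (55.0 FPKM) and by Srebf2 (48.2 FPKM). Hmgcs1 and Acly overlapped over the libraries (43.7 to 72.9 and 48.7 to 65.7 FPKM), so these neighbours in the order did not differ beyond their spread. The lowest were Stard4, which encodes a soluble sterol carrier, at 4.26 FPKM and the fatty acid elongase gene Elovl6 at 2.20 FPKM. Srebf2 lay between 42.8 and 58.5 FPKM and Srebf1 between 9.01 and 12.5 FPKM, with no overlap. Scd2 (67.6 to 96.1 FPKM) was above Scd1 (14.1 to 19.0 FPKM), the other stearoyl-CoA desaturase here, in every library. Some members lie close on a chromosome in GRCm38: Fads1 and Fads2 on chromosome 19 with 81.1 kb between them, Scd1 and Scd2 on chromosome 19 with 87.6 kb, and Fdps and Pmvk on chromosome 3 with 352.6 kb.

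**Figure D1:**
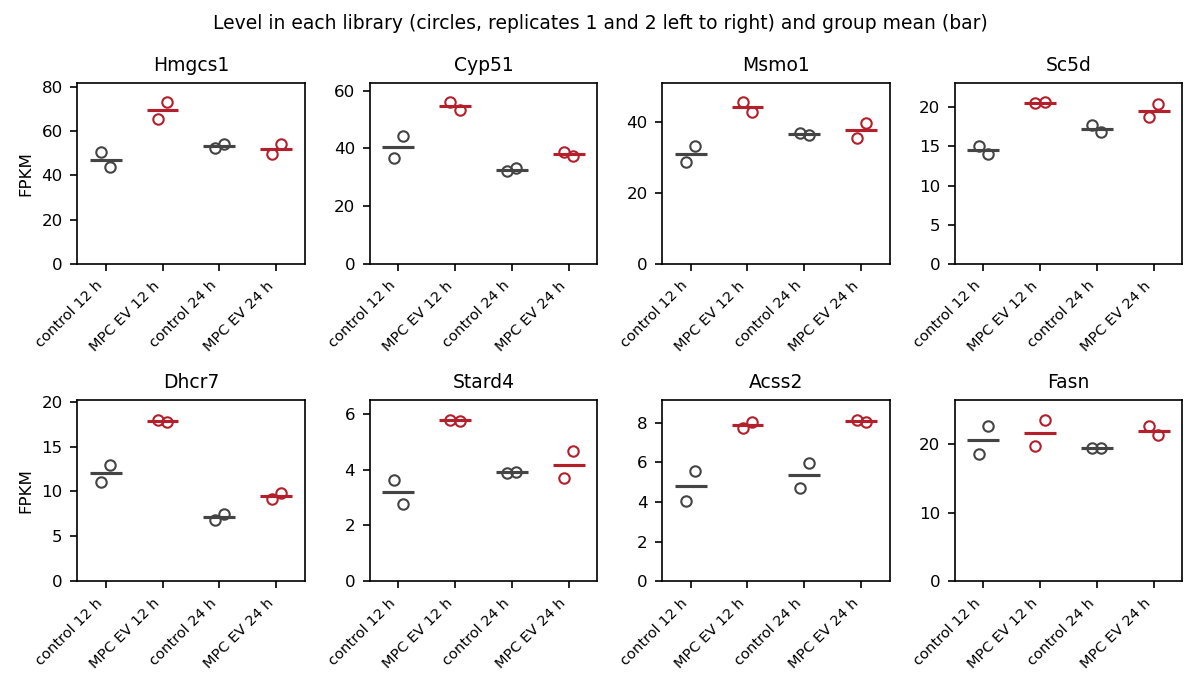
Level of selected members in FPKM (vertical axes from 0), 1 point per library and a bar at the mean of each group's 2 libraries. At 12 h the MPC EV libraries of Hmgcs1 (65.6 and 72.9 FPKM) were above both controls (50.4 and 43.7 FPKM), and those of Fasn overlapped the controls.

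After 12 h, transcripts of the sterol branch were higher with MPC EVs in 5 of 18 enzymes, and those of the fatty acid branch in 1 of 9. The 7 members called were Hmgcs1, Cyp51, Msmo1, Sc5d and Dhcr7 of the sterol branch, the sterol carrier Stard4, and Acss2, which makes acetyl-CoA from acetate. Their log2 differences were 0.43 to 0.77. Hmgcs1, Msmo1, Sc5d and Stard4 are among the 7 members with under 45% GC, and Cyp51, Dhcr7 and Acss2 are not. Limma called 0 of the 32 lower, and 1 was lower at an unadjusted p under 0.05 (3208 of the 10981 tested genes were). Of all tested genes, 4.36% were called higher and 14.3% lower, against 21.9% and 0 members. In these bulk samples, a change in the RNA per cell and a change in the share of cells that express a gene cannot be told apart.

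Hmgcs1 (ENSMUSG00000093930, chromosome 13, 119690379 to 119708260 in GRCm38) was at 50.4 and 43.7 FPKM in control libraries and 65.6 and 72.9 FPKM with MPC EVs. Both MPC EV libraries lay above both controls, and the log2 difference was 0.55 ± 0.09 (SE, limma adjusted p = 0.0167). It is the only early enzyme of the path that was called. The other 6, which carry acetyl-CoA units and mevalonate on to farnesyl diphosphate, had differences of -0.15 (Mvk, mevalonate kinase) to 1.07 (Idi1, which interconverts the isoprene units). Idi1 had 8.78 and 3.64 FPKM in control libraries and 12.0 and 13.0 FPKM with MPC EVs. Both MPC EV values were the higher ones, but the controls were far apart and the test was not passed (SE 0.35, limma adjusted p = 0.0773). Without control 12 h replicate 2, the difference of Idi1 was 0.49 (limma adjusted p = 0.0662). Fdps, with 145 and 179 FPKM in control and 171 and 166 FPKM with MPC EVs, overlapped between the groups (log2 difference 0.06, 95% interval -0.19 to 0.32).

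The late enzymes turn farnesyl diphosphate into squalene, close it to lanosterol and trim it to cholesterol. Of these 11, 4 were called, all of them enzymes that act on lanosterol or on sterols made from it. Tm7sf2 (0.14), Nsdhl (0.13), Hsd17b7 (0.27) and Ebp (-0.03) act on such sterols too and were not called. Cyp51, the lanosterol demethylase (ENSMUSG00000001467, chromosome 5, 4081145 to 4104746), was at 36.7 and 44.4 FPKM in control and 55.9 and 53.4 FPKM with MPC EVs. The groups were separate, and the log2 difference was 0.43 ± 0.10 (limma adjusted p = 0.0307). Msmo1, the sterol C4-methyl oxidase (ENSMUSG00000031604, chromosome 8, 64718139 to 64733792), was at 28.6 and 33.3 FPKM against 45.5 and 42.8 FPKM. Again both MPC EV libraries were higher (0.51 ± 0.09, limma adjusted p = 0.0202). Sc5d, the lathosterol desaturase (ENSMUSG00000032018, chromosome 9, 42251595 to 42264256), had the tightest values, 15.0 and 14.0 FPKM in control and 20.5 and 20.6 FPKM with MPC EVs (0.49 ± 0.08, limma adjusted p = 0.0129). Dhcr7, which makes cholesterol from 7-dehydrocholesterol (ENSMUSG00000058454, chromosome 7, 143823145 to 143848410), was at 11.0 and 13.0 FPKM in control and 18.0 and 17.7 FPKM with MPC EVs. The groups were apart by more than their spread, and the log2 difference was 0.56 ± 0.10 (limma adjusted p = 0.0196). The other 7 late enzymes had differences of -0.03 (Ebp, the sterol isomerase) to 0.27 (Hsd17b7, a sterol ketoreductase), and none passed. Hsd17b7 was still higher in both MPC EV libraries, at 17.0 and 17.4 FPKM against 13.3 and 15.1 FPKM (limma adjusted p = 0.0846). Sqle, the squalene epoxidase, was at 17.5 and 19.7 FPKM against 20.0 and 22.7 FPKM (limma adjusted p = 0.169).

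Among the genes of SREBP control and sterol transport, the carrier was called and the regulators were not. Stard4 (ENSMUSG00000024378) was at 3.64 and 2.77 FPKM in control libraries and 5.79 and 5.73 FPKM with MPC EVs. It was the member with the largest called difference at 12 h, 0.77 ± 0.15 (limma adjusted p = 0.0241), with no overlap of the groups. Insig1, itself an SREBP target that holds SCAP back, was at 17.7 and 20.6 FPKM against 19.8 and 24.4 FPKM, which overlap (0.20, 95% interval -0.08 to 0.48). Srebf2 was at 46.1 and 58.5 FPKM against 47.9 and 53.1 FPKM (-0.04, interval -0.32 to 0.24). Srebf1 was at 11.3 and 11.9 FPKM against 9.01 and 10.7 FPKM, lower in both MPC EV libraries (-0.23, interval -0.47 to 0.01). Scap was at 12.0 and 14.7 FPKM against 10.1 and 10.6 FPKM (-0.35 ± 0.10, limma adjusted p = 0.0586). Srebf1 and Scap were the only 2 of the 32 members with both MPC EV libraries below both controls (45% of all genes were). Transcript levels say nothing of how much SREBP protein was processed.

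In the fatty acid branch, Acss2 (ENSMUSG00000027605, chromosome 2, 155517948 to 155585724) was at 4.07 and 5.57 FPKM in control and 7.73 and 8.02 FPKM with MPC EVs. Both MPC EV libraries were higher (0.67 ± 0.16, limma adjusted p = 0.0390). Elovl6 was at 2.01 and 0.72 FPKM against 2.88 and 2.90 FPKM. As with Idi1, the low value was that of control 12 h replicate 2, and the difference of 0.95 ± 0.31 was not called (limma adjusted p = 0.0769; 0.43 without that library, adjusted p = 0.0862). The genes that make palmitate overlapped between the groups. Acly was at 56.0 and 65.7 FPKM in control and 56.3 and 59.7 FPKM with MPC EVs (-0.06, 95% interval -0.27 to 0.14). Acaca, the acetyl-CoA carboxylase, was at 7.01 and 8.24 FPKM against 8.11 and 8.86 FPKM (0.15, interval -0.09 to 0.39). Fasn, the fatty acid synthase, was at 18.6 and 22.6 FPKM against 19.7 and 23.6 FPKM, with replicate values interleaved (0.07, interval -0.22 to 0.37). The desaturases Scd1, Scd2, Fads1 and Fads2 had differences of -0.13 to 0.18 and none passed.

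The 2 branches were set side by side over all their members. In the sterol branch 15 of 18 genes had a positive difference at 12 h, 10 had both MPC EV libraries above both controls, and the median was 0.20. In the fatty acid branch 6 of 9 were positive, 2 were separate in this way, and the median was 0.13. Over all tested genes the median was -0.12, 36.6% were positive and 17.1% were separate in this way, so relative to all genes the medians were 0.32 and 0.25. With median-ratio scaling of the libraries the median of all genes was 0.01. The 11 late sterol enzymes had a median of 0.22 with 10 positive, and the 7 early ones 0.11 with 5 positive. Summed over its genes, the sterol branch came to 454 and 521 FPKM in control libraries and 578 and 576 FPKM with MPC EVs, which did not overlap. The fatty acid branch came to 207 and 250 FPKM against 226 and 255 FPKM, which did. No test compared the branches with each other.

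**Figure D2:**
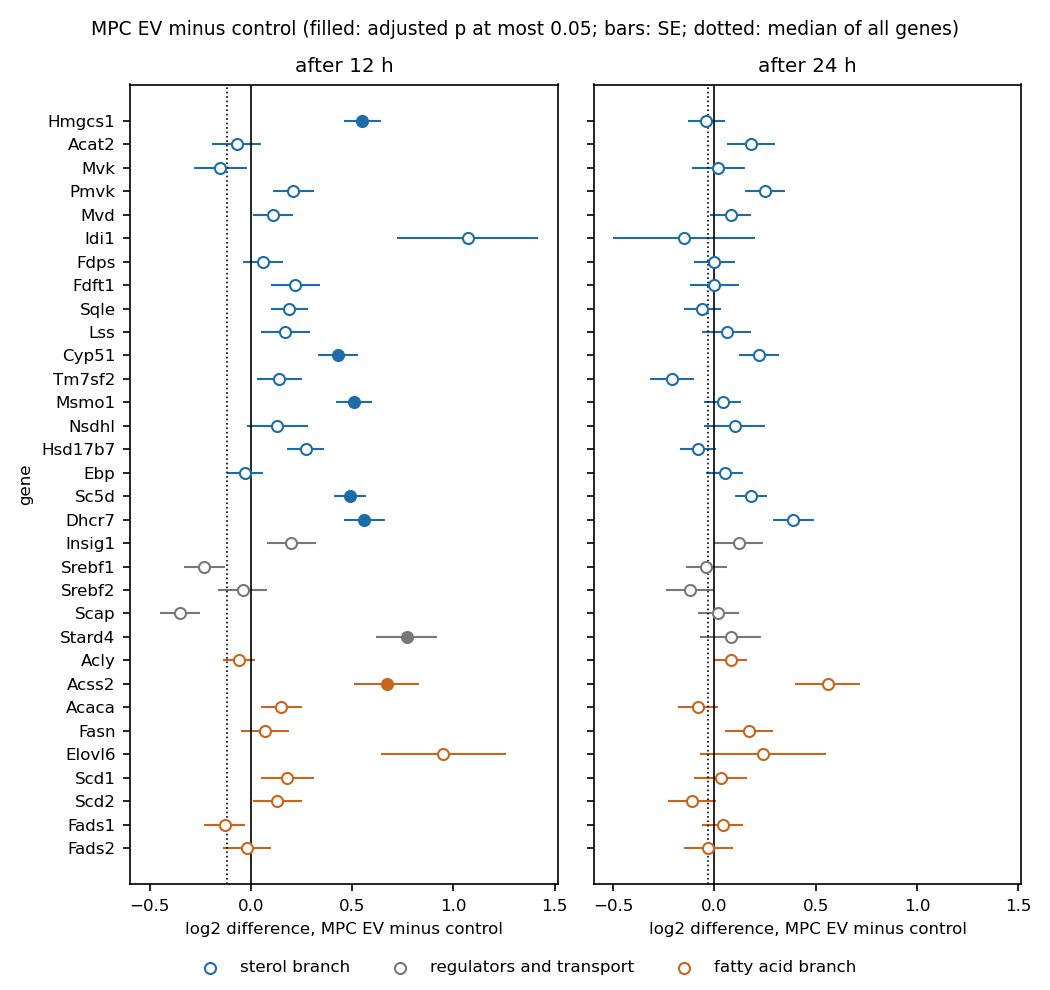
Log2 difference of MPC EV against control (horizontal axis) for each member at 12 h and 24 h, with bars of 1 SE, filled points where the adjusted p was at most 0.05 and a dotted line at the median of all tested genes. At 12 h 7 of 32 points are filled and 28 lie above that median (-0.12), and at 24 h none is filled.

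The calls at 12 h ended in several other fits: 0 members were higher in a fit of the 4 libraries at 12 h alone (0.0182% of all genes), with array weights (0.993%), or without MPC EV 12 h replicate 1 (0.637%) or replicate 2 (0.692%), while 9 were higher without control 12 h replicate 1 (19.9% of all genes), 11 without control 12 h replicate 2 (5.75%), and 3 without control 24 h replicate 1 (1.89%) or replicate 2 (1.90%). After values were corrected for GC content and transcript length, 5 members were higher (4.0% of all genes), of which Dhcr7 (0.67, limma adjusted p = 0.0131) and Stard4 (0.54, adjusted p = 0.0387) were among the 7, while Hmgcs1, Cyp51, Msmo1, Sc5d and Acss2 did not pass (adjusted p = 0.0992, 0.300, 0.213, 0.299 and 0.140) and Idi1, Pmvk and Mvd did.

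**Figure D3:**
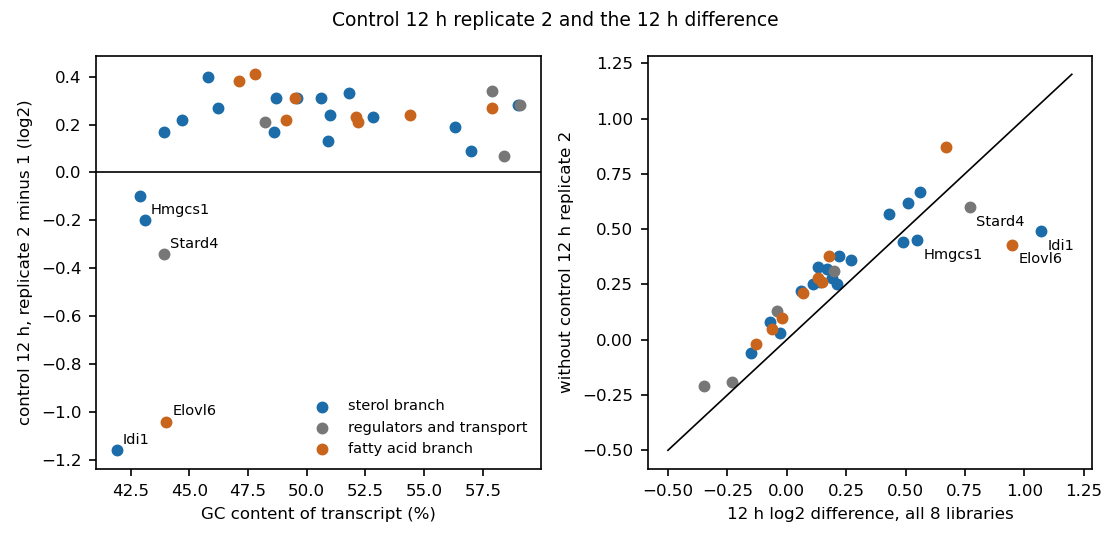
Log2 ratio of control 12 h replicate 2 to replicate 1 (vertical axis) against GC content of the transcript in percent (horizontal axis), with a point for each member, and, at right, the 12 h log2 difference without that library against that with all 8 libraries. Idi1 (-1.16 at 41.9% GC) and Elovl6 (-1.04 at 44.0% GC) lie lowest at left, and at right the difference of Idi1 is 1.07 with all libraries and 0.49 without this one.

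Markers of other states were read in the same comparison, in which 4.36% of all tested genes were called higher and 14.3% lower. Of 8 cell cycle genes, 6 were lower with MPC EVs at 12 h, and their summed level was 219 to 226 FPKM in control libraries and 131 to 141 FPKM with MPC EVs. Of 3 tested fibroblast markers, 2 were lower (sums over the list 38.9 to 41.3 against 26.5 to 31.9 FPKM). Of the 9 myotube markers, 2 were higher (sums 13200 to 15200 against 14700 to 15200 FPKM). Of 6 progenitor markers, 1 was higher and 1 lower (sums 986 to 1070 against 928 to 960 FPKM). The summed mitochondrial mRNAs were at 6440 to 18400 FPKM in control and 16400 to 20100 FPKM with MPC EVs, which overlap. Of these 9 mRNAs, 0 were called, and their median difference was 0.56 with all libraries and -0.11 without control 12 h replicate 2. The part of all these markers in the differences of the lipid genes was not tested.

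After 24 h, no member was called in either direction by limma, while 2.61% of all tested genes were called higher and 0.956% lower. At an unadjusted p under 0.05 in limma, 3 members were higher and 0 lower. Of the 10981 tested genes, 921 were higher and 640 lower in this way. The medians were 0.04 in the sterol branch, 0.04 in the fatty acid branch and -0.03 over all genes. Dhcr7 was at 6.80 and 7.51 FPKM in control and 9.18 and 9.84 FPKM with MPC EVs, higher in both libraries (0.39 ± 0.10, limma adjusted p = 0.124). Acss2 was at 4.72 and 5.97 FPKM against 8.15 and 8.03 FPKM, with the groups apart (0.56 ± 0.16, limma adjusted p = 0.159). Hmgcs1, in contrast, was at 52.4 and 54.2 FPKM against 49.4 and 54.2 FPKM, which overlap (-0.04, 95% interval -0.27 to 0.18). Cyp51 (32 and 33.3 against 38.8 and 37.4 FPKM) and Sc5d (17.7 and 16.8 against 18.7 and 20.4 FPKM) were each higher in both MPC EV libraries without passing. Msmo1 and Stard4 overlapped. Both MPC EV libraries lay above both controls for 13 of 32 members (23.7% of all genes were separate in this way). They lay below both controls for Sqle, Tm7sf2, Srebf2, Acaca and Scd2. The share of all genes below both controls is not given here.

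The EV effects at the 2 times share no library, and their difference was tested. Limma called 0 members in either direction for the difference (0.00% of all tested genes were called). At an unadjusted p under 0.05 in limma, 1 member was higher and 6 lower. Of the 10981 tested genes, 1734 were higher and 280 lower in this way. The signed log2 effect was higher at 12 h than at 24 h for 14 of 18 sterol genes and 6 of 9 fatty acid genes. The same held for 36.4% of all tested genes. These shares compare signed values, not the size of the effects. Among the 7 genes called at 12 h, the difference of the effects was largest in size for Stard4 and Hmgcs1. It was -0.69 for Stard4 (95% interval -1.21 to -0.17, limma adjusted p = 0.194) and -0.60 for Hmgcs1 (interval -0.92 to -0.28, adjusted p = 0.146). For Dhcr7 (-0.17, interval -0.52 to 0.18) and Acss2 (-0.11, interval -0.66 to 0.45) the interval held 0. That a gene passed at 12 h and not at 24 h therefore does not show that its effect differed.

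**Figure D4:**
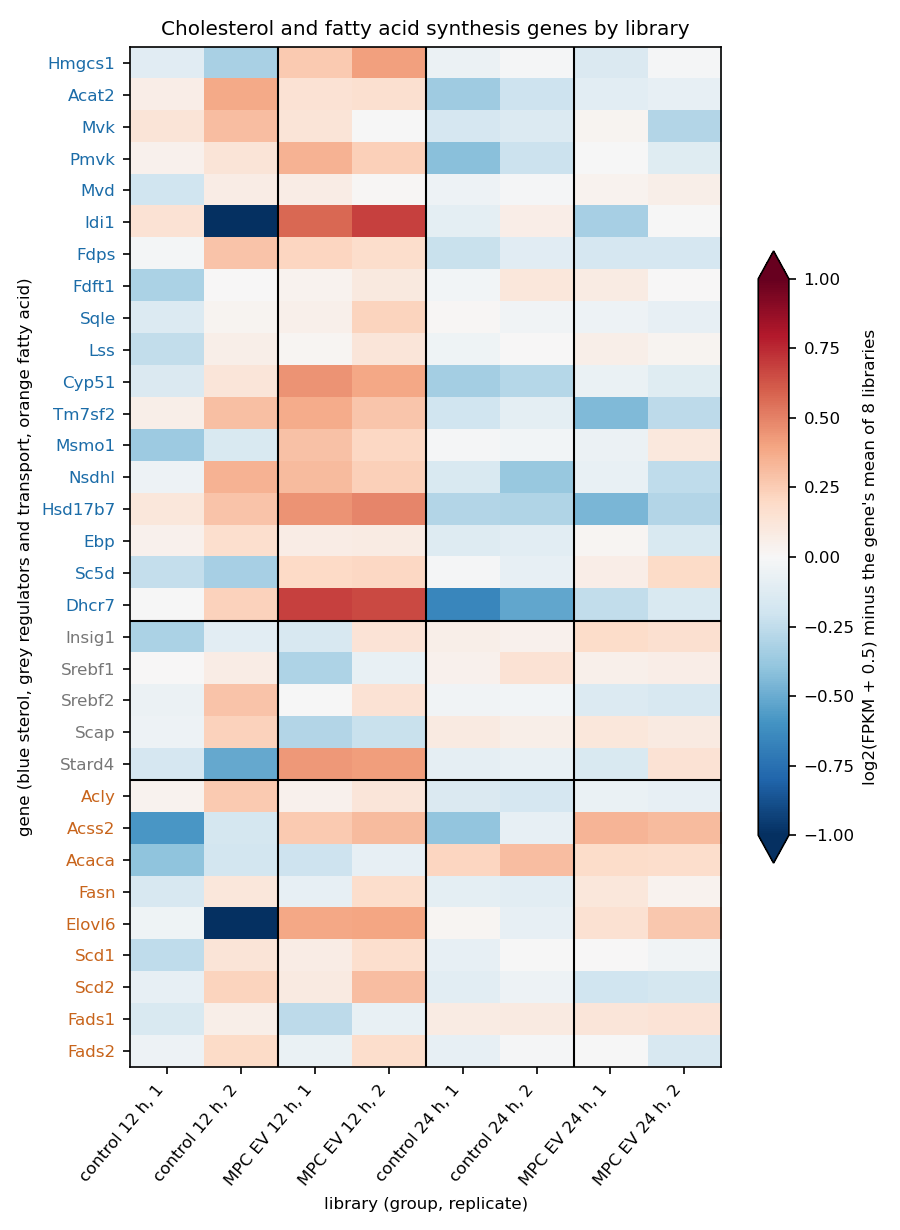
Each member (rows) in each library (columns), as the log2(FPKM + 0.5) deviation from the gene's mean over the 8 libraries in colour. The MPC EV 12 h columns are the highest ones for Dhcr7 (18.0 and 17.7 FPKM), and Idi1 and Elovl6 are lowest in control 12 h replicate 2 (3.64 and 0.72 FPKM).

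Between 12 h and 24 h, 4 of 18 sterol enzymes were called lower in control and 5 of 18 with MPC EVs. Of all tested genes, 10.3% and 5.40% were called lower in these comparisons. In control, the sterol enzyme genes Hmgcs1, Msmo1 and Sc5d instead had both 24 h libraries above both 12 h libraries, without being called. None of the 18 enzymes was called higher (2 in control and 0 with MPC EVs were higher at an unadjusted p under 0.05 in limma). Of the 10981 tested genes, 1661 and 2776 were higher in this way. The 12 h libraries in these comparisons are the ones that enter the EV effect at 12 h, so the values are set side by side and not as separate support. In control myotubes 4 members fell, all sterol enzymes: Dhcr7 (-0.71 ± 0.10, limma adjusted p = 0.00672), Hsd17b7 (-0.49 ± 0.09, 0.0160), Acat2, which joins acetyl-CoA units (-0.51 ± 0.12, 0.0301), and Pmvk, phosphomevalonate kinase (-0.40 ± 0.10, 0.0376). One rose, Acaca, from 7.01 and 8.24 FPKM to 11.0 and 11.8 FPKM (0.55 ± 0.10, limma adjusted p = 0.0139). Of all tested genes, 10.3% were called lower and 7.54% higher.

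In myotubes given MPC EVs, 5 members fell with time, and none rose, against 5.40% of all tested genes called lower and 12.9% higher. At an unadjusted p under 0.05, limma had 4 members higher, none of them a sterol enzyme, and 2776 of the 10981 tested genes. The 5 that fell were all sterol enzymes: Dhcr7 (-0.88 ± 0.10, limma adjusted p = 0.00378), Hsd17b7 (-0.84 ± 0.09, 0.00321), Tm7sf2, a sterol C14-reductase (-0.67 ± 0.11, 0.0126), Cyp51 (-0.51 ± 0.10, 0.0166) and Hmgcs1 (-0.42 ± 0.09, 0.0304). Hsd17b7 went from 17.0 and 17.4 FPKM to 8.82 and 9.96 FPKM. Both later libraries were far below both earlier ones, and the control libraries showed the same order, with 13.3 and 15.1 FPKM at 12 h and 9.95 and 9.89 FPKM at 24 h. Dhcr7 and Hsd17b7 passed under each of the 20 alternatives in the MPC EV groups.

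The sterol branch had a median time difference of -0.26 in control and -0.30 with MPC EVs, with 10 and 17 of 18 genes negative. All genes had medians of 0.01 and 0.10. The fatty acid branch had medians of 0.02 and -0.14, and no gene of it fell in this fit. In control, Acly fell with median-ratio scaling and with a mean of at least 5 FPKM. With MPC EVs, Scd2 fell with median-ratio scaling, quantile normalization, array weights and only the libraries compared. Both genes also fell in some fits without a single library. Acaca (0.32 ± 0.10, limma adjusted p = 0.0713) and Fads1, the delta-5 desaturase (0.30 ± 0.10, adjusted p = 0.0799), were higher at 24 h in both MPC EV libraries without passing, and Scd2 was lower (-0.39 ± 0.12, adjusted p = 0.0682). Of the 9 myotube markers, 9 fell with time in control and 4 with MPC EVs. Of 6 progenitor markers, 4 fell and 1 rose in control (sums 986 to 1070 FPKM at 12 h and 703 to 710 FPKM at 24 h), and 2 fell with MPC EVs (928 to 960 and 726 to 727 FPKM). Of 8 cell cycle genes, 2 rose and 3 fell in control (219 to 226 and 192 to 193 FPKM), and 5 rose with MPC EVs (131 to 141 and 171 to 183 FPKM). The part of these markers in the differences of the sterol genes was not tested. The count of members that fell in control was 0 where only the libraries compared were fitted (2.94% of all genes), 0 without control 24 h replicate 1 (3.75%) and 13 without control 12 h replicate 1 (18.4%). With MPC EVs it was 12 with only the libraries compared (10.8% of all genes), 15 without control 12 h replicate 1 or 2 (12.8% each), and 2 without MPC EV 12 h replicate 1 or 2 (1.97% and 2.20%) or MPC EV 24 h replicate 1 or 2 (2.04% and 1.86%).

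**Figure D5:**
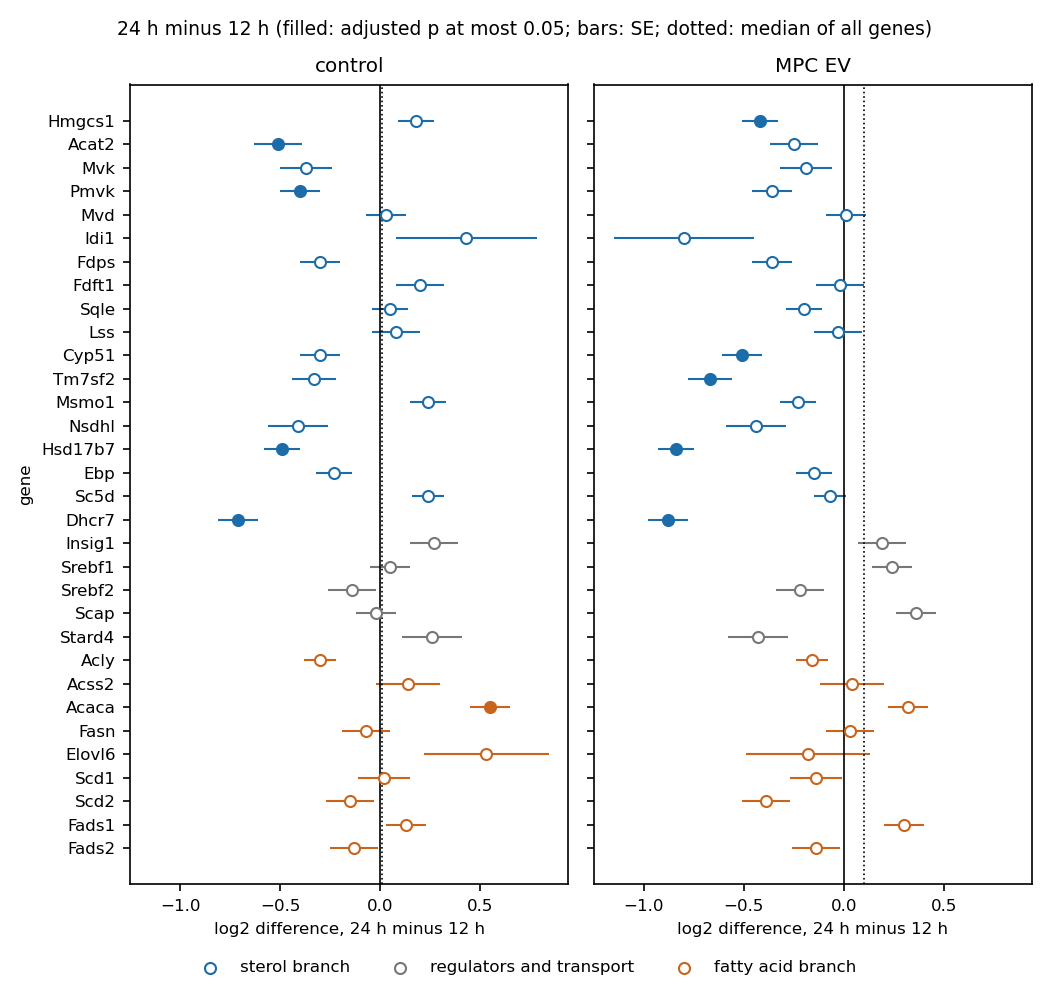
Log2 difference of 24 h against 12 h (horizontal axis) for each member in control and MPC EV myotubes, with bars of 1 SE, filled points where the adjusted p was at most 0.05 and a dotted line at the median of all tested genes. Filled points of the sterol branch all lie below 0, with Dhcr7 at -0.71 and -0.88, and Acaca in control (0.55) is the filled point above 0.

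Other genes of the same biology were read from 4 lists that hold no member. In all, 1 of their genes rose with MPC EVs at 12 h, Acsl1, a long-chain acyl-CoA synthetase. It went from 3.09 and 3.05 FPKM to 6.45 and 6.01 FPKM (0.91 ± 0.08, limma adjusted p = 0.00372), and at 24 h it was at 7.09 and 7.02 FPKM against 10.4 and 9.80 FPKM (0.49, adjusted p = 0.0346). Both MPC EV libraries were above both controls at each time, and after the GC and length correction the 12 h difference of Acsl1 was 0.70 and did not pass (adjusted p = 0.0523). It was the 1 gene that rose among 32 tested genes of other lipid synthesis, of which 9 fell at 12 h, among them Acsl5, of the same family (-0.47, adjusted p = 0.0169), and Mcat, the mitochondrial malonyl transferase (-0.52, adjusted p = 0.0198). Of 17 tested genes of sterol uptake, transport, efflux, storage and oxysterol response, 0 rose and 1 fell, Npc2, the lysosomal cholesterol carrier (-0.60, adjusted p = 0.00944). Of 12 tested genes of SREBP processing and degradation, 0 rose and 2 fell. These were the ubiquitin ligase gene Rnf145 (-0.46, limma adjusted p = 0.0390) and Erlin2 of the endoplasmic reticulum (-0.32, limma adjusted p = 0.0449). Of 14 genes on branches that leave the mevalonate path, 0 rose and 4 fell, led by Dhdds, which makes dolichol (-0.33, adjusted p = 0.0370), Rabggtb, which prenylates Rab proteins (-0.24, adjusted p = 0.0405), and Rce1, which trims prenylated proteins (-0.36, adjusted p = 0.0468). At an unadjusted p under 0.05, limma had 0, 1 and 0 genes higher in these last 3 lists, and 965 of the 10981 tested genes. The medians of the 4 lists in this order were -0.23, -0.10, -0.15 and -0.19, beside -0.12 over all genes, and 14.3% of all tested genes fell. Most of these calls moved with the scaling. With median-ratio scaling 2, 1, 0 and 0 genes of the 4 lists fell and 2, 0, 1 and 0 rose (Acsl1, Dgat2 and Erlin1). After the GC and length correction 0, 1, 0 and 0 fell and 1, 0, 0 and 0 rose (Dgat2). Of the genes named as lower, Npc2, Acsl5 and Mcat passed with median-ratio scaling and Npc2 after the correction. At 24 h, limma called 0 genes of the last 3 lists (at an unadjusted p under 0.05, 2, 0 and 0 were higher and 2, 2 and 0 lower). Of the 10981 tested genes, 921 were higher and 640 lower in this way.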

How the data were processed

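Gene expression was measured by RNA sequencing in 8 libraries of myotubes, 2 per treatment and time. The deposited values are FPKM, made by the authors from paired reads of libraries without strand information, so reads of overlapping genes on opposite strands cannot be told apart. HISAT2, DESeq2 and the build mm10 are named in the submitters' processing notes without a role, and no counting tool or annotation is given in the sources used here. As FPKM are relative to a library's total, a change in a few abundant transcripts moves all others. Gene IDs were matched to symbols in GENCODE vM21 on GRCm38, and 34490 of 35275 had one. All 8 columns were assigned to a sample by name. Whole fragment numbers (within 0.02 of a fragment) could be recovered for 9.12% of tested genes and for 0 members, so no count test was run. Depth, an estimate from the step of low values, was 16.3 to 20.2 M fragments per library, and counting error is largest for low and short genes.

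The test was limma 3.58.1 (R 4.3.3, eBayes with an intensity trend, two-sided) on log2(FPKM + 0.5) for genes whose mean was at least 1 FPKM. One fit held all 4 groups and left 4 residual degrees of freedom, with Benjamini-Hochberg adjustment over 10981 genes and a threshold of 0.05. Contrasts were MPC EV against control at each time, the difference of these effects, and 24 h against 12 h in each treatment. All members are named. From each pathway list, the up to 3 genes with the smallest adjusted p among those that passed are named for each EV comparison. Members, lists and tests were chosen with earlier results of these data known. No list was tested as a set. The steps were tested on simulated data with each gene's scatter in these libraries. Of added changes of 0.5 (log2), 37.3% were called at 12 h and 31.3% at 24 h. Of changes of 1, 67.2% and 71.6% were called, so a change of the size of most member differences was often missed. Alternatives were other pseudocounts (0.1 and 1) and filters on low values, median-ratio scaling, quantile normalization, values corrected for GC content and transcript length (known for 99.7% of tested genes and all 32 members), no intensity trend, the replicate number as a block, array weights, each library left out, and fits of only the libraries compared. Promoters came from RefSeq (GRCm38.p6). Tables and figures were made in Python 3.11.15 (pandas 2.3.3, numpy 2.4.6, matplotlib 3.10.9).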

Additional observations from a re-analysis of the deposited data

Results flagged for a closer look

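Sqle, the squalene epoxidase, was called at neither time, and its measured difference between MPC EV and control libraries had opposite signs. The log2 difference was 0.19 at 12 h (limma adjusted p = 0.169) and -0.06 at 24 h (limma adjusted p = 0.91). Opposite signs at the 2 times were measured for 13 of 32 members and 4790 of 10981 tested genes. At 12 h its MPC EV libraries (20.0 and 22.7 FPKM) lay above both controls (17.5 and 19.7 FPKM), and at 24 h they (18.6 and 18.2 FPKM) lay below both (19.5 and 18.9 FPKM). The effect at 24 h minus that at 12 h was -0.25 on the log2 scale, and limma did not call this difference (adjusted p = 0.339).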

How the results depend on the processing

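At 12 h, 7 members were higher, and 0 were with array weights and with only the libraries compared. The count was 5 to 9 under the other alternatives that keep all libraries and 0 to 11 when each library was left out. Members lower at 12 h numbered 0, but 1 (Scap) with a mean of at least 5 FPKM, and 0 to 3 without single libraries. At 24 h, 0 were higher, 3 with array weights, and 0 to 3 without single libraries. For the difference of the effects the counts were 0, with 0 to 3 higher and 0 to 6 lower without single libraries. In control myotubes 1 member was higher at 24 h than at 12 h (0 after GC and length correction and with only the libraries compared, 0 to 6 without single libraries). There, 4 were lower (2 without a filter, 1 after GC and length correction and with array weights, 0 with only the libraries compared, 0 to 13 without single libraries). With MPC EVs 0 were higher with time (3 with array weights, 3 with only the libraries compared, 0 to 3 without single libraries) and 5 lower (10 with median-ratio scaling, 8 with quantile normalization, 13 with array weights, 12 with only the libraries compared, 2 to 15 without single libraries). The cause of these shifts was not tested, beyond the smaller number of libraries where some are left out. The share of all tested genes called moved too. At 12 h 4.36% were higher, 0.993% with array weights and 0.0182% with only the libraries compared. With MPC EVs 5.40% were lower with time, and 10.8% with only the libraries compared. Where no share is given, a count does not tell whether members moved more than other genes. Where a group is left with 1 library, that library is assumed to vary like the other groups.

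The replicate numbers did not pair the libraries: the deviations of same-numbered libraries from their group means had correlations of -0.613 to 0.241 between groups. With the replicate number as a block, 5 members were higher at 12 h and 0 at 24 h. With time, 1 was higher and 3 were lower in control and 4 lower with MPC EVs. The share of all genes called in this fit is not given here.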

Other observations

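Between 12 h and 24 h, more genes of a list of sterol uptake, transport, efflux, storage and oxysterol response rose than fell in both treatments. Of the 17 tested, 6 rose and 2 fell in control myotubes, where limma called 7.54% of all genes higher. With MPC EVs 7 were higher and 2 lower, where 12.9% of all genes were higher. In control, 6 were higher with quantile normalization, 6 with median-ratio scaling and 4 after the GC and length correction, and with MPC EVs 5, 5 and 4. Both comparisons use 12 h libraries that also enter the EV effect at 12 h. The following genes were chosen after their values were seen. Stard5, a sterol carrier, went from 15.0 and 18.3 FPKM to 27.4 and 27.0 FPKM in control (0.70 ± 0.10, limma adjusted p = 0.00585) and from 13.9 and 13.5 to 25.9 and 25.7 FPKM with MPC EVs (0.89 ± 0.10, adjusted p = 0.00317). Osbpl2, an oxysterol-binding protein relative, went from 12.6 and 13.4 FPKM to 24.4 and 24.0 FPKM in control (0.87 ± 0.06, limma adjusted p = 0.000717). Soat1, which esterifies cholesterol for storage, went from 9.59 and 9.27 FPKM to 12.3 and 11.9 FPKM in control (0.34 ± 0.07, limma adjusted p = 0.0214). In each of these the later libraries were above both earlier ones. The 2 genes that were lower in both treatments were Osbpl5 and Stard10.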
